A study of Mus musculus with 10 samples.

Results

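Kupffer cells, the resident macrophages of the liver, were followed through 10 genes that mark them, chosen by name out of the 24537 gene symbols of a count table: Clec4f, Vsig4, Timd4, Cd5l, Marco, Cd163, Siglec1, Adgre1, Folr2 and Csf1r. All 10 were found, and all 10 passed the filter on low counts. RNA was measured in 10 whole livers of male mice. The groups were 3 young livers (9 months, Rosa26-KO), 3 old livers (25 months, Rosa26-KO) and 4 old livers (25 months, Cd44-KO). Rosa26, a locus commonly cut as a neutral site, was the control target, so no group was left untargeted. Cd44, a surface receptor for hyaluronan, was targeted with AAV8-TBG-saCas9-U6-sgCd44. This adeno-associated virus expresses the Cas9 of Staphylococcus aureus from TBG, a promoter active in hepatocytes. Virus was injected when the mice were 7 or 23 months old; the strain and the control vector are not described in the sources used here. Guide 4 was used in knockout replicates 1 and 2 and guide 2 in replicates 3 and 4. The knockout was thus directed at hepatocytes, and the Kupffer cells that the members mark are neighbours of the targeted cells.

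Kupffer cells line the liver sinusoids and remove bacteria, dead cells and aged erythrocytes from the blood. They arise before birth from yolk sac and fetal liver precursors and renew themselves locally. When the niche is emptied, blood monocytes enter, and signals from sinusoidal endothelium (the Notch ligand Dll4), stellate cells and hepatocytes impose the Kupffer programme on them through factors such as LXR-alpha, Spic and the inhibitor Id3. Monocyte-derived Kupffer cells acquire Clec4f soon after entry and Timd4 only late, so that Timd4 is widely used as a mark of long-resident cells. Macrophage genes carry sites for PU.1, the lineage factor of myeloid cells, and for MAF factors.

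The members lie on 9 chromosomes (GENCODE M21, GRCm38). Of the genes the results turn on, Clec4f lies on chromosome 6 from 83644542 to 83656187 (minus strand), Cd163 on chromosome 6 from 124304656 to 124330527 (plus strand), Timd4 on chromosome 11 from 46810800 to 46844332 (plus strand), Vsig4 on the X chromosome from 96247203 to 96293438 (minus strand) and Cd5l on chromosome 3 from 87357881 to 87371073 (plus strand). The 250 bases before the RefSeq start of these 5 genes (GRCm38.p6) are shown because Clec4f, Vsig4 and Cd5l rose together with age while Timd4 and Cd163 did not pass that test. The windows are chr6:83656117-83656366 for Clec4f, chrX:96293439-96293688 for Vsig4, chr3:87357631-87357880 for Cd5l, chr11:46810549-46810798 for Timd4 and chr6:124304401-124304650 for Cd163, each written along the strand of its gene. Capitals mark the core of the PU.1 site (GAGGAA, or TTCCTC on the other strand) and the half-site of MAF factors (TGCTGA, or TCAGCA on the other strand).
Clec4f: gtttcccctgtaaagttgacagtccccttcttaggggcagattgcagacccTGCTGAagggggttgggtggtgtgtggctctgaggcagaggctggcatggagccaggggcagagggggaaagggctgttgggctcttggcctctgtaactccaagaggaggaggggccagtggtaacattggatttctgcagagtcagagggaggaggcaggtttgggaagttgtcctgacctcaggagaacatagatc
Vsig4: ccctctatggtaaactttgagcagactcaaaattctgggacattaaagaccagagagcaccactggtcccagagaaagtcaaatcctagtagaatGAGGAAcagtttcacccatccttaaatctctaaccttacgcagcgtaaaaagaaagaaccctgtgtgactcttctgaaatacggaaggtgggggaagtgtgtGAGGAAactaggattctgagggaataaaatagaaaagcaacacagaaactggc
Cd5l: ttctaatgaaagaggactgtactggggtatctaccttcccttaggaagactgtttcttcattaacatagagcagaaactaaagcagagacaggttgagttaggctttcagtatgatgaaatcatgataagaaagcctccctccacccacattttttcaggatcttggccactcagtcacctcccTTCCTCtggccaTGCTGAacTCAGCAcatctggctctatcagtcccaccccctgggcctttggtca
Timd4: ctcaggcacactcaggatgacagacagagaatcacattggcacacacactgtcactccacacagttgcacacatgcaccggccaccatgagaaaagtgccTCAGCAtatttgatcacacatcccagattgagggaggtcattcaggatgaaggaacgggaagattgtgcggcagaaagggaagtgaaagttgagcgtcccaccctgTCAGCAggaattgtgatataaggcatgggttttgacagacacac
Cd163: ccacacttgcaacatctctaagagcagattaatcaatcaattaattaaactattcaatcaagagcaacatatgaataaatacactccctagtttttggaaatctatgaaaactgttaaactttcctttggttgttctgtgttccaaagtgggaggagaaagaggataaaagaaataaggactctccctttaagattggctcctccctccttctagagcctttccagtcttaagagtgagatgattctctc
Vsig4 held 2 PU.1 cores, starting 155 and 53 bases before the start, and no MAF half-site. Cd5l held 1 PU.1 core at 66 bases and 2 MAF half-sites at 54 and 46 bases. Timd4 held 2 MAF half-sites at 150 and 44 bases, Clec4f 1 at 199 bases, and Cd163 neither motif. Promoter entries were matched for 7 of the 10 members (8 entries, with 2 for Folr2); Siglec1, Adgre1 and Csf1r were not matched. The PU.1 core occurred in 3 of the 7 genes and the MAF half-site in 4 of the 7. Among all 32851 windows of the same length, 23.3% held the PU.1 core and 16.1% the MAF half-site on either strand, and the 2 motifs do not overlap in any window shown. A match in these letters is a description and shows no binding.

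Libraries held 15821198 to 21710228 counts. Hepatocyte genes summed to 80458 to 125445 CPM, and all members were detected in every liver. Levels are given as CPM, counts scaled for sequencing depth, with trimmed mean of M values (TMM) factors. Per kilobase of exon, Cd5l and Clec4f were the most abundant members in young livers, with means of 29.8 ± 5.49 and 28.3 ± 2.12 CPM per kilobase (SD, n = 3), and their ranges overlapped. Vsig4 followed with 11.97 ± 2.51 CPM per kilobase, and Siglec1 was the lowest with 1.34 ± 0.18. Marco, Folr2, Csf1r, Timd4, Adgre1 and Cd163 lay between, and in that order only the steps from Clec4f to Vsig4, from Csf1r to Timd4 and from Cd163 to Siglec1 had ranges that did not overlap. In old Rosa26 and in knockout livers the order again began with Cd5l, Clec4f and Vsig4, but Cd163 was the lowest, at 0.89 ± 0.48 CPM per kilobase in the old Rosa26 group (SD, n = 3) and 0.53 ± 0.26 in the knockout group (SD, n = 4). The old Rosa26 livers differed among themselves: replicate 1 was the lowest of the 3 for 9 members. Replicate 2 was the highest of all 10 livers for 7 members, a rank it held for 16.2% of all genes tested, and the library name of replicate 3 lies outside the run of the others. Cd44 itself averaged 12.6 ± 3.5 CPM among the young (SD, n = 3), 23.4 ± 8.19 among the old Rosa26 (SD, n = 3) and 19.6 ± 6.71 CPM among the knockout livers (SD, n = 4), and did not separate knockout livers from old controls (log2 fold change -0.25, SE 0.30, edgeR adjusted p 0.896). RNA of whole liver does not show which cells held Cd44 RNA, so the effect of targeting in hepatocytes was not measured. Knockout livers are therefore the livers labelled as such, and directions given for them rest on the labels.

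**Figure D1:**
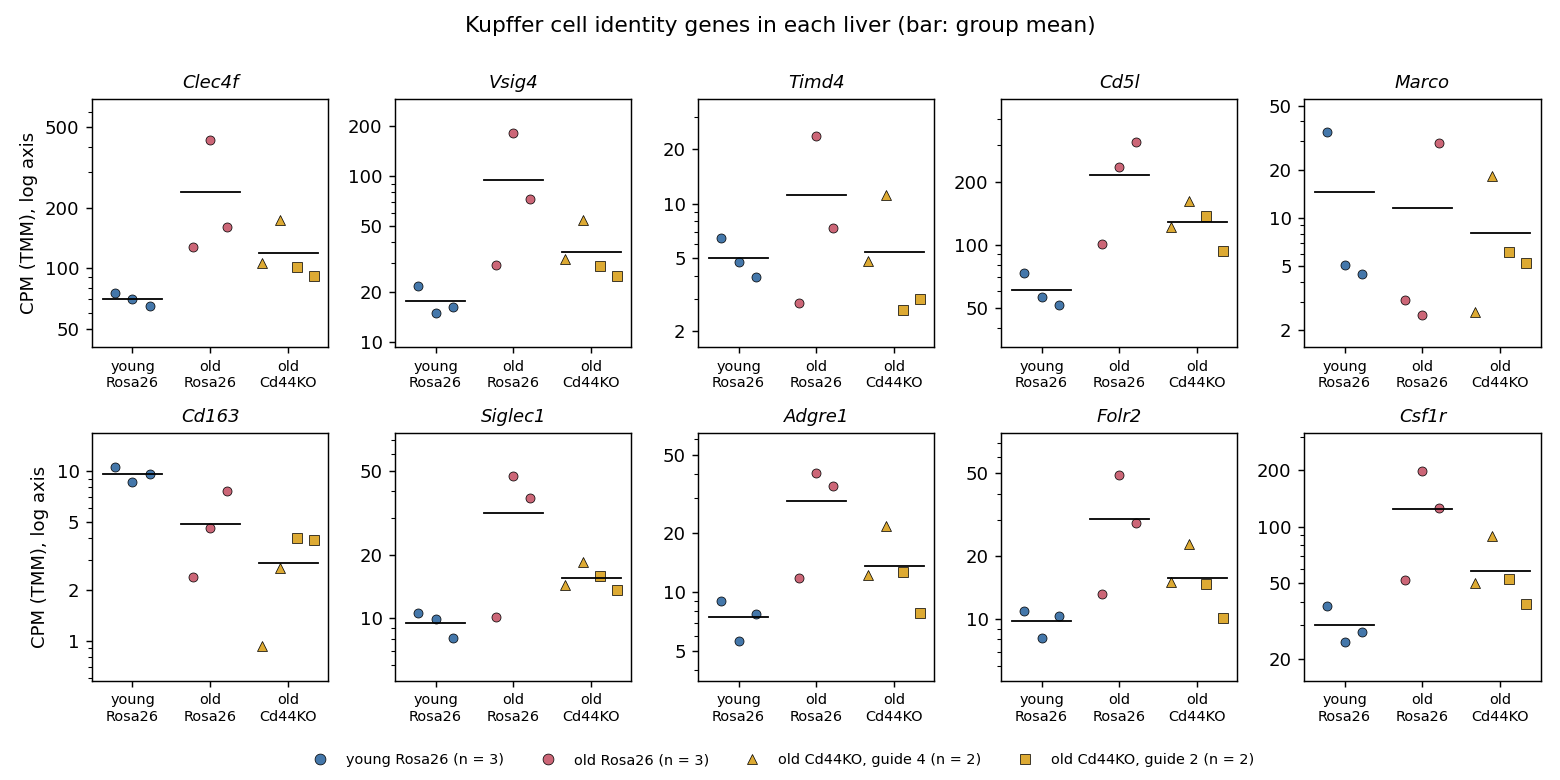
CPM of the 10 members in each liver on log axes, 1 point per liver, with a bar at the group mean; triangles and squares mark guides 4 and 2. Old Rosa26 replicate 2 was highest for 7 members, Marco was high in 1 liver of each group, and every old liver lay below every young liver for Cd163.

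The first comparison set old against young Rosa26 livers. With age 7 members rose: Clec4f, Vsig4, Cd5l, Siglec1, Adgre1, Folr2 and Csf1r, by 3.09- to 5.34-fold. None fell by the test, and Timd4, Marco and Cd163 did not pass it. Across all 13909 genes tested, 14.1% passed as higher and 8.66% as lower (edgeR quasi-likelihood test, Benjamini-Hochberg adjusted p under 0.05). The median log2 fold change was 1.75 over the members and 0.04 over all genes. In whole liver, more cells of a type and more RNA per cell cannot be told apart, and which cells held the members' RNA was not measured.

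Clec4f, a galactose-binding lectin found in mouse liver almost only on Kupffer cells, had 75.1, 70.2 and 64.7 CPM in young and 127, 431 and 159.8 CPM in old Rosa26 livers, replicates 1 to 3 in each. The groups did not overlap, and replicate 2 was 3.4 times replicate 1 within the old group. The log2 fold change was 1.77 (SE 0.41, edgeR adjusted p 0.0149). Vsig4, the complement receptor that captures opsonised bacteria from blood, had 22.0, 14.9 and 16.4 CPM in young and 29.1, 182 and 73.1 CPM in old livers. These groups did not overlap either, and the log2 fold change of Vsig4 was 2.42 (SE 0.54, edgeR adjusted p 0.0138), the largest of the members with all livers but not without old replicate 2, where it was 1.52 and that of Cd5l 1.76. Siglec1, a lectin for sialic acids on cells and viruses, had 10.6, 9.89 and 8.11 CPM in young and 10.1, 47.3 and 37.0 CPM in old livers. Old replicate 1 lay inside the young range, and the log2 fold change was 1.72 (SE 0.42, edgeR adjusted p 0.018).

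Cd5l encodes a secreted scavenger protein that supports macrophage survival. It had 73.2, 56.7 and 51.9 CPM in young and 101, 235 and 310.1 CPM in old livers. Here replicate 3, not replicate 2, was highest, and the rise of 1.83 (log2, SE 0.35) had the smallest adjusted p of the members, 0.00936 by edgeR. Csf1r, the receptor for the growth factors Csf1 and Il34 on which macrophages depend, had 37.8, 24.4 and 27.7 CPM in young and 52.1, 197 and 125 CPM in old livers (log2 fold change 2.06, SE 0.43, edgeR adjusted p 0.0116). Adgre1, the F4/80 antigen, had 9.0, 5.67 and 7.73 CPM in young and 11.8, 40.5 and 34.7 CPM in old livers (log2 fold change 1.96, SE 0.45, edgeR adjusted p 0.015). Folr2, a folate receptor of resident macrophages, had 10.95, 8.11 and 10.3 CPM in young and 13.2, 48.9 and 28.9 CPM in old livers (log2 fold change 1.63, SE 0.41, edgeR adjusted p 0.0207). In each of these 4 genes all 3 old livers lay above all 3 young livers, and old replicate 1 was the nearest to them. Of the 10 members 6 had this separation, against 19.7% of all genes tested.

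Timd4, a receptor for phosphatidylserine on dying cells, had 6.49, 4.75 and 3.93 CPM in young and 2.85, 23.5 and 7.35 CPM in old livers. Old replicate 1 was below all young livers and replicate 2 far above them (log2 fold change 1.15, SE 0.70, edgeR adjusted p 0.245). Without old replicate 2 the log2 fold change was 0.01. Cd163, the scavenger receptor for haptoglobin-haemoglobin complexes, had a negative difference, as did Marco. It had 10.5, 8.64 and 9.5 CPM in young and 2.36, 4.6 and 7.58 CPM in old livers, all 3 below the young range, a separation that 18% of all genes shared. The difference of -0.97 (log2, SE 0.46) did not pass (edgeR adjusted p 0.146), and passed only without old replicate 3 (-1.45, adjusted p 0.0356) among the alternatives.

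Marco, a scavenger receptor for bacteria and particles, did not follow the groups. Young livers had 34.3, 5.08 and 4.5 CPM, old Rosa26 livers 3.1, 2.51 and 29.2 CPM, and knockout livers 2.61, 18.1, 6.12 and 5.25 CPM. One liver in each group was high: young replicate 1, old replicate 3 and knockout replicate 2. The log2 fold change with age was -0.34 (SE 1.02, edgeR adjusted p 0.834) and turned to 1.27 without young replicate 1. Old replicate 2, the highest liver for 7 other members, had the least Marco of all 10 livers.

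How many members passed as higher with age depended on single livers, as did the number of all genes called. Without old replicate 2 the rise passed for 4 members (Clec4f, Vsig4, Cd5l and Csf1r), with log2 fold changes of 1.03, 1.52, 1.76 and 1.56. Without young replicate 3 it also passed for 4, and without young replicate 2 for 0, where the 7 log2 fold changes were 1.51 to 2.3 and their edgeR adjusted p 0.0517 to 0.0874. In that order, these fits called 1032 of 14039, 1549 of 14145 and 396 of 14167 genes in either direction, against 3172 of 13909 with all livers.

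**Figure D2:**
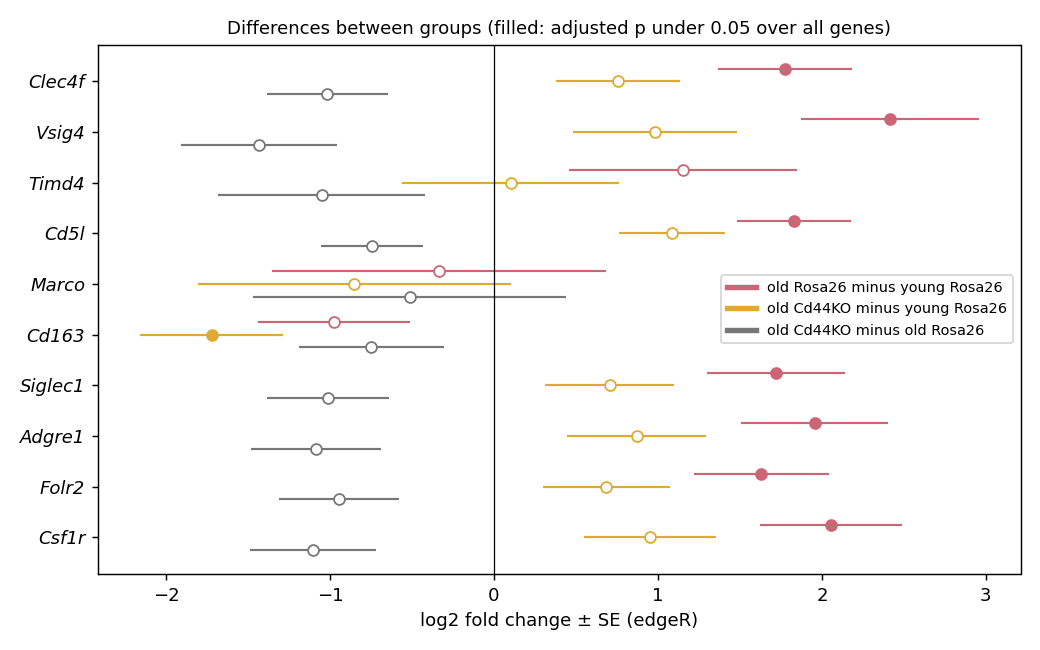
Log2 fold change (point) and standard error (line) of each member in the 3 comparisons of groups, with filled points where the edgeR adjusted p over all genes is under 0.05. The 7 filled points of the age comparison lie between 1.63 and 2.42, all open points of the knockout comparison lie below 0, and Cd163 is the only filled point on the negative side.

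The members were next set against Csf1r within each liver, as counts per 100 Csf1r counts, a measure that needs no scaling between libraries. It is given as a description, with no test. Adgre1 kept a narrow range, 23.2 to 27.9 in young, 20.6 to 27.7 in old Rosa26 and 20.1 to 24.3 in knockout livers. Vsig4 lay between 54.7 and 64.8 in 9 livers and at 92.7 in old replicate 2. Clec4f had 199 to 288 in young and 128 to 244 in the 7 old livers, and Cd5l 187 to 232 and 119.6 to 260.2, so that both overlapped between ages. Folr2 had 29.0 to 37.3 in young and 23.0 to 29.8 in old livers, and Siglec1 28.2 to 40.5 and 19.5 to 34.9.

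Marco varied most, with 90.8, 20.8 and 16.2 in young, 5.95, 1.28 and 23.3 in old Rosa26 and 5.17, 20.3, 11.6 and 13.5 in knockout livers. Its mean was 3.68-fold lower in the 7 old livers, with overlapping ranges and most of the young mean in replicate 1.

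Cd163 and Timd4 were the members whose ratio lay below the young range in all 7 old livers. Cd163 had 27.7, 35.4 and 34.3 counts per 100 of Csf1r in young livers. Old Rosa26 livers had 4.53, 2.34 and 6.06 and knockout livers 1.84, 2.98, 7.58 and 10.0, so that every old liver was below every young one. The mean log2 ratio of the 7 old livers minus that of the 3 young livers was -2.91, a 7.53-fold difference, and against Adgre1 in place of Csf1r it was 7.02-fold. Timd4 had 17.2, 19.5 and 14.2 in young, 5.48, 11.96 and 5.87 in old Rosa26 and 9.54, 12.5, 4.9 and 7.65 in knockout livers, also without overlap. Its mean log2 ratio was 2.16-fold lower in old livers, and 2.02-fold against Adgre1, where the ranges overlapped (50.8 to 83.7 per 100 Adgre1 counts in young and 20.4 to 58.1 in old livers). Csf1r and Adgre1 both rose with age (log2 fold changes 2.06 and 1.96) and kept a narrow ratio to each other. The 2 references are therefore not independent, and a ratio to either is lowered by its rise. In CPM, the difference of Cd163 between old and young Rosa26 livers was -0.97 (log2) and did not pass. Of all other genes tested, 44.4% had a ratio to Csf1r below the young range in all 7 old livers, and 0.137% had one above it. Among the lists of macrophage genes given further on, 1 of 16 pan-macrophage genes (Cd14, named after its value was seen) and 1 of 14 further Kupffer genes (C6) lay below it. In these lists 14 and 9 genes rose with age, as Csf1r did, so low shares are no separate measure of how unusual Cd163 and Timd4 are.

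**Figure D3:**
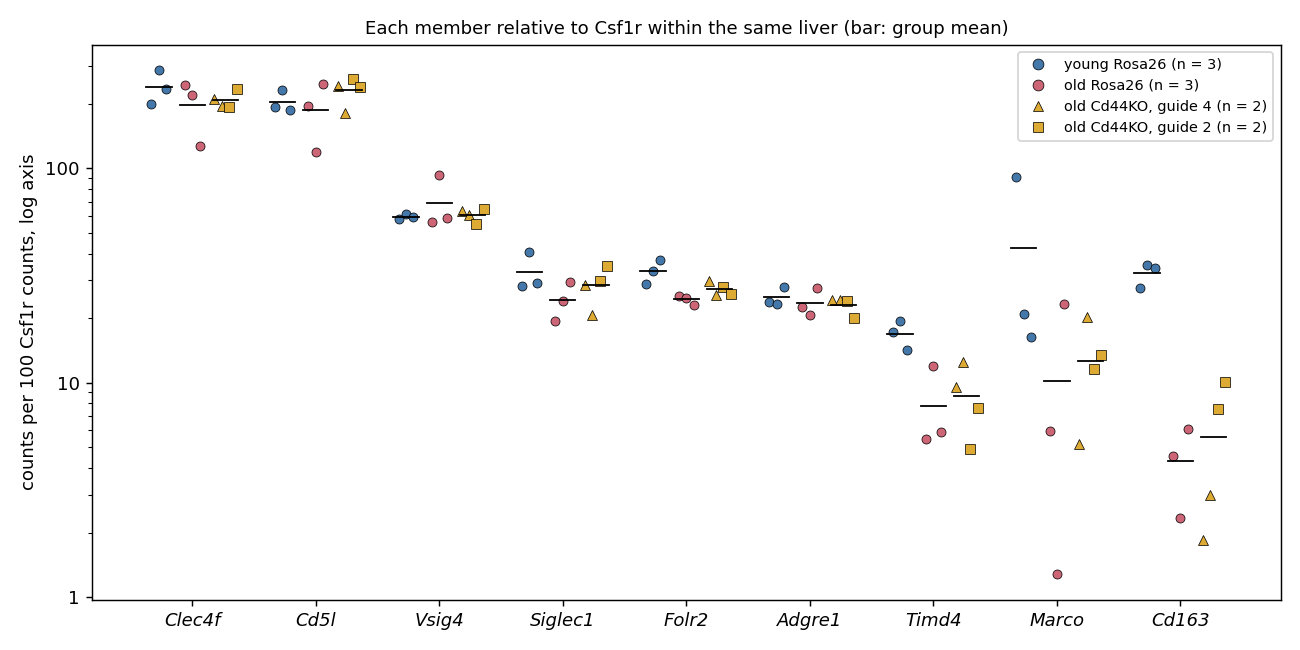
Counts of 9 members per 100 Csf1r counts in the same liver, on a log axis, with a bar at each group mean. Adgre1 stays between 20.1 and 27.9 in all livers, while Cd163 lies at 27.7 to 35.4 in young and at 1.84 to 10.0 in old livers.

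The second comparison asked whether the livers labelled Cd44 knockout differed from old Rosa26 livers. No member passed (edgeR adjusted p 0.744 to 0.932), nor did any of the 13909 genes (0%). All 10 log2 fold changes were negative, where 45.6% of all genes had a positive one, and ran from -1.43 for Vsig4 to -0.51 for Marco, with a median of -1.02 against -0.02 over all genes. Of these, 7 had an unadjusted p under 0.05, all lower, against 4.02% of all genes in that direction; they are the 7 that rose with age. Both comparisons use the same old Rosa26 livers. The one-sided direction was not particular to the members. In lists given further on, 0 of 16 pan-macrophage, 0 of 12 endothelial, 0 of 9 stellate and 0 of 7 neutrophil genes had a positive difference. The number was 1 of 14 further Kupffer and 2 of 15 monocyte genes, but 4 of 7 dendritic and 9 of 12 lymphocyte genes. DESeq2 also called 0 members, with 7 at an unadjusted p under 0.05.

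Knockout livers had 106, 174, 102 and 91.6 CPM of Clec4f, replicates 1 to 4, against 127 to 431 CPM in old Rosa26 livers (log2 fold change -1.02, SE 0.37, edgeR adjusted p 0.744). Replicate 2 lay inside the old Rosa26 range and the other 3 below it. Csf1r had 50.6, 89.4, 52.8 and 38.9 CPM against 52.1 to 197 CPM (log2 fold change -1.1, SE 0.38, edgeR adjusted p 0.744). Siglec1 had 14.4, 18.4, 15.8 and 13.6 CPM, inside the range of old Rosa26 livers but above old replicate 1 in each. No member had all 4 knockout livers below all 3 old Rosa26 livers, a separation that 3.26% of genes showed. The size of these differences rested on old Rosa26 replicate 2: without it 0 members had an unadjusted p under 0.05, the log2 fold change of Clec4f was -0.28 and that of Timd4 turned to 0.09. Without old Rosa26 replicate 1, Siglec1 passed (log2 fold change -1.43, edgeR adjusted p 0.0188).

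By guide, no member passed the test between guide 2 and guide 4 (edgeR adjusted p 1.0 for each after rounding, 0 members and 4.4% of genes at an unadjusted p under 0.05, DESeq2 0 members with 2 at an unadjusted p under 0.05), and 0.0212% of 14153 genes passed. For Timd4, the guide 4 livers stood at 4.82 and 11.2 CPM and the guide 2 livers at 2.59 and 2.98 CPM (guide 2 minus guide 4, log2, -1.53, SE 0.79). Cd163 went the other way, 0.93 and 2.66 CPM under guide 4 against 4.0 and 3.91 CPM under guide 2 (1.11, SE 0.54). The livers of the 2 guides did not overlap for 5 members: guide 2 was below guide 4 for Clec4f, Vsig4, Timd4 and Folr2 (18.1% of genes) and above it for Cd163 (20.4% of genes). The lowest Cd163 value rested on 16 counts. Set against old Rosa26 livers separately, guide 2 livers had 8 members lower at an unadjusted p under 0.05 (4.11% of genes) and guide 4 livers 1, Cd163 (2.11%); after edgeR adjustment no member passed with either guide, and 0.0495% and 0% of genes did. Vsig4 had log2 fold changes of -1.81 (SE 0.61) with guide 2 and -1.14 (SE 0.58) with guide 4, neither past the threshold. Those of Cd44 were -0.60 (SE 0.34) with guide 2 and 0.04 (SE 0.33) with guide 4, also not past it. Both contrasts share the same old Rosa26 livers, replicate 2 among them, and neither was repeated without single livers.

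The third comparison set knockout livers against young livers, the same young livers as in the first. Cd163 fell: its 0.93, 2.66, 4.0 and 3.91 CPM lay below the young 8.64 to 10.5 CPM, as 18.8% of genes did (11.1% had all 7 old livers, both groups, below all 3 young, as Cd163 had), a log2 difference of -1.72 (SE 0.44, edgeR adjusted p 0.0344). No member rose, while 6.64% of all genes passed as higher and 4.97% as lower. Cd5l came nearest, with 122, 162, 137 and 93.7 CPM in knockout livers, all above the young range (log2 fold change 1.09, SE 0.32, edgeR adjusted p 0.0517). Clec4f, Vsig4, Cd5l, Siglec1 and Csf1r had all 4 knockout livers above all 3 young livers, as did 21.1% of genes. Leaving out single livers ended the call of Cd163 in 6 of the 7 fits (edgeR adjusted p 0.0623 to 0.111), and it held without knockout replicate 1 (0.0354); its log2 fold change in these fits was -1.93 to -1.44. With only young and knockout livers in the fit, Clec4f, Vsig4, Cd5l, Siglec1 and Csf1r passed as higher as well. That fit called 4223 of 13601 genes in either direction, against 1614 of 13909 in the main fit. Passing here and not with age does not show that knockout and old Rosa26 livers differ in Cd163; that difference was -0.75 (SE 0.44, edgeR adjusted p 0.794).

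Other genes of the Kupffer programme were read from lists. Of 14 further Kupffer genes, 9 rose and 1 fell with age. Their summed level overlapped between the groups, at 607 to 653 CPM in young, 565 to 1097 in old Rosa26 and 497 to 648 CPM in knockout livers. Kcna2, a potassium channel, rose by 2.62 in log2 units (SE 0.50, edgeR adjusted p 0.00936), Vcam1, an adhesion molecule, by 1.95 (adjusted p 0.0372), Clec1b, the podoplanin receptor, by 1.73 (adjusted p 0.00917) and Slc11a1, a metal transporter of phagosomes, by 1.23 (adjusted p 0.0242). C6, a component of the complement attack complex, fell by 0.80 (SE 0.18, adjusted p 0.0147). Against young livers, knockout livers had Kcna2, Clec1b, Slc40a1 and Il18bp higher and C6 lower (log2 fold change -1.2, adjusted p 0.00743). Of 12 transcription factors tied to the Kupffer programme, 5 rose and 1 fell with age. The sum of the 12 also overlapped, at 684 to 798 CPM in young, 676 to 850 in old Rosa26 and 757 to 822 CPM in knockout livers. Spic, which macrophages use in handling haem and iron, rose by 1.96 (SE 0.49, adjusted p 0.0196), Spi1, which encodes PU.1, by 1.82 (adjusted p 0.015), Irf8 by 1.3, Zeb2 by 1.28 and Maf by 1.11. Id3 fell by 0.67 (SE 0.18, adjusted p 0.0257), and was also lower in knockout than in young livers (-0.68, adjusted p 0.0324). Nr1h3, the gene of LXR-alpha, had a log2 fold change of -0.11 and did not pass. These genes are expressed by other liver cells as well, so their levels are not those of Kupffer cells alone.

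Of 12 niche ligands and receptors tested, 4 rose with age: Tgfb1 by 1.57, the Notch ligand Dll4 by 1.39, Gdf2 (BMP9) by 1.19 (SE 0.17, edgeR adjusted p 0.00667) and its receptor Acvrl1 by 0.93. The Csf1r ligands Csf1 and Il34 had log2 fold changes of 0.06 and 0.54 and did not pass. Bmp10 was below the filter. In knockout against old Rosa26 livers 0 genes of any list passed in edgeR.

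The age comparison also moved markers of other cells, and their part in the members' rise was not tested. Of 16 pan-macrophage genes 14 rose, with a median log2 fold change of 1.81, among them Aif1 by 2.11, Cd68 by 2.11, Fcer1g by 2.07 and Lyz2 by 2.0. Their summed level was 384 to 508 CPM in young, 648 to 2087 in old Rosa26 and 715 to 1143 CPM in knockout livers. Of 15 genes of monocytes and monocyte-derived macrophages 7 rose, among them Trem2 by 4.73, Cx3cr1 by 2.64, Itgax by 2.14 and S100a4 by 2.06, and the sum was 59.7 to 84.9, 108 to 267 and 101 to 147 CPM in the same groups. Of 7 dendritic cell genes 0 passed (4.96 to 22.8 CPM in old Rosa26 against 6.53 to 7.83 CPM in young livers). Without old Rosa26 replicate 3, the liver with the lowest sum, 4 of 7 passed as higher. That fit called 5327 of all 14116 genes tested in either direction, against 3172 of 13909 with all livers. Of 12 sinusoidal endothelial genes 10 rose (246 to 335 CPM in young, 472 to 563 in old Rosa26 and 326 to 405 in knockout livers), and of 9 stellate cell genes 7 rose (142 to 214, 233 to 386 and 217 to 272 CPM).

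Markers of neutrophils, lymphocytes and cycling cells were highest in old Rosa26 replicate 2. Neutrophil genes summed to 315 CPM there and to 7.41 to 33.6 CPM in the other 9 livers, with 5 of 7 tested genes higher with age, and Ltf and Camp at 0 in all young livers. Lymphocyte genes summed to 81.3 CPM in that liver and to 7.54 to 50.1 CPM elsewhere (8 of 12 higher), and cell cycle genes to 53.8 against 4.55 to 25.6 CPM (5 of 6 higher). Megakaryocyte and erythroid genes summed to 527 to 558 CPM in young and 388 to 795 CPM in old Rosa26 livers, with 3 higher and 1 lower of 6 tested. Of 8 hepatocyte genes 2 fell, Hnf4a by 0.96 and Tat by 0.84, and none rose. Without old Rosa26 replicate 2 the calls were 12 of 16 pan-macrophage genes, 3 of 14 further Kupffer genes, 3 of 12 transcription factors, 2 of 12 niche genes, 1 of 15 monocyte genes, 7 of 12 endothelial, 2 of 9 stellate, 1 of 7 neutrophil, 1 of 12 lymphocyte, 1 of 6 megakaryocyte and erythroid, 2 of 6 cell cycle and 0 of 8 hepatocyte genes, all higher. Without young replicate 2 the calls were 2 pan-macrophage, 1 further Kupffer, 1 niche, 1 monocyte, 3 endothelial and 1 stellate gene, all higher, and 0 in each of the other lists. Without old Rosa26 replicate 3 the calls higher were 14 pan-macrophage, 11 further Kupffer, 5 transcription factor, 6 niche, 10 monocyte, 9 endothelial, 6 stellate, 12 lymphocyte, 4 megakaryocyte and erythroid and 5 cell cycle genes, with 9 of 10 neutrophil genes, which then all passed the filter. The calls lower were 1 further Kupffer, 1 transcription factor, 1 megakaryocyte and erythroid and 4 hepatocyte genes. Over all genes 3172 of 13909 were called with all livers. The number was 1032 of 14039 without old Rosa26 replicate 2, 396 of 14167 without young replicate 2 and 5327 of 14116 without old Rosa26 replicate 3.

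**Figure D4:**
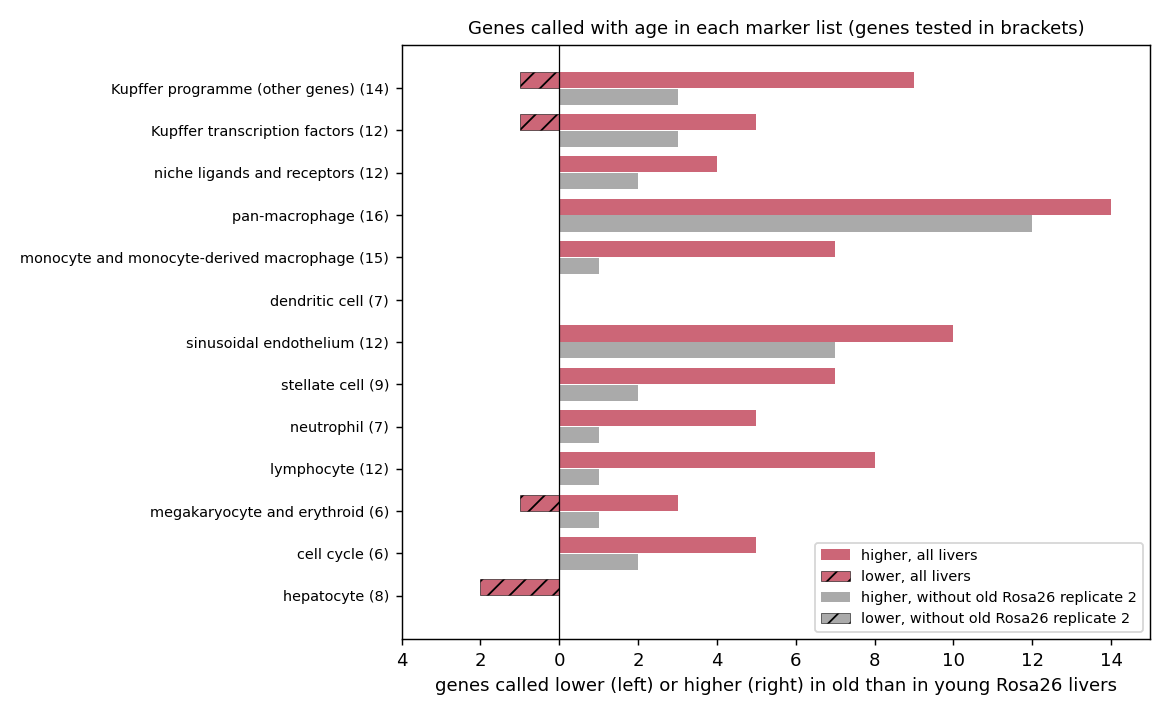
Number of genes called higher (right) or lower (left) in old than in young Rosa26 livers in each list, with all livers and without old Rosa26 replicate 2; the number tested stands in brackets. Pan-macrophage genes go from 14 to 12 calls without that liver, and monocyte genes from 7 to 1. Their median log2 fold changes go from 1.81 to 1.18 and from 1.64 to 0.98. Calls over all genes go from 3172 of 13909 to 1032 of 14039.

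Genes whose pattern over the 10 livers was most like the members' mean standardized level were sought among 12685 genes with a mean of at least 1 CPM. The 8 with the highest Pearson r, given as a description of likeness over livers that share the group differences, were Fam167a (0.98), B430306N03Rik (0.97), Itgb2 (0.97), Plbd1 (0.97), Rab32 (0.96), Lgmn (0.96), Cxcl13 (0.95) and Csf2rb (0.95). Itgb2 encodes the shared chain of the leukocyte integrins, and Lgmn a lysosomal protease. Cxcl13, a chemokine for B cells, had mean levels of 3.24 CPM in young, 50.2 in old Rosa26 and 7.18 CPM in knockout livers. Ranked by Spearman's rho instead, Plbd1 came at rank 2 and Fam167a was tied at rank 8, while the other 6 lay at ranks 16 to 375. The members themselves differed in how closely each followed the mean of the other 9: r was 0.95 for Adgre1, Csf1r and Folr2, 0.94 for Vsig4 and Siglec1, 0.86 for Clec4f and Cd5l, 0.77 for Timd4, 0.15 for Marco and -0.11 for Cd163.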

How the data were processed

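Polyadenylated RNA of 10 whole livers was sequenced as paired reads, per the labels' protocols. The deposited table gives raw, unnormalized read counts for each gene symbol, as the authors made it. The submitters' processing notes name mm10, FastQC 0.11.8, Trim Galore 0.4.4, STAR 2.5.3a and HOMER without roles; how reads were counted, on which annotation and whether by strand, is not given in the sources used here, so overlapping genes are uncertain. Counts were tested with edgeR 4.0.16 in R 4.3.3 (quasi-likelihood test, 1 coefficient per group over all 10 livers, or 4 coefficients for the guides, TMM factors, filterByExpr with a minimum count of 10 and total of 15), adjusted over all 13909 genes (14153 for the guides), and called below an adjusted p of 0.05. Each SE is the log2 fold change divided by the square root of F. Log2 CPM for likeness had a prior count of 2. CPM per kilobase used exon lengths of GENCODE M21. The steps were tested on counts simulated with the same mean level in all livers of a group. Such counts do not cover livers that stand apart from their group. Limma 3.58.1 and DESeq2 1.42.0 gave alternatives.

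Members and lists were chosen with earlier results of these data known. Named were the 10 members, Cd44, up to 4 called genes per list with the largest change (Il18bp, Maf, Nr1h3, Csf1 and Il34 were added after their values were seen) and the 8 genes of like pattern. The lists were further Kupffer genes, Kupffer transcription factors, niche ligands and receptors, pan-macrophage, monocyte, dendritic, endothelial, stellate, neutrophil, lymphocyte, megakaryocyte and erythroid, cell cycle and hepatocyte genes. The labels do not say that each library is a separate animal, so p-values measure the spread between these samples, which may be technical. Replicate numbers follow record order and pair nothing. List counts without single livers, and ratios to Adgre1, were alternatives chosen after seeing the data.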

Additional observations from a re-analysis of the deposited data

Results flagged for a closer look

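A single liver of the 4 knockout livers stood off from its group in 3 results out of the 32 examined, its gap to the nearest value exceeding Dixon's critical value; chance gives about 1.6. Adgre1 per 100 Csf1r counts was lowest in replicate 4, at 20.1 against 24.0 to 24.3 (gap 0.922 of the range). The summed megakaryocyte and erythroid genes were highest in replicate 2, at 940.3 CPM against 461 to 524 CPM (0.869 of the range). The summed hepatocyte genes were lowest in replicate 1, at 85885 CPM against 88986 to 89074 CPM (0.972 of the range). No CPM of a member was flagged in this way.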

How the results depend on the processing

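No paired analysis was possible because replicates carry no number in the titles that ties livers across groups. Of 10 members, 7 passed with age; leaving out each liver in turn gave 0 to 8, and the other alternatives 5 to 7. The knockout comparison gave 0 members, and 0 to 1 without single livers. Knockout against young gave 1 member, 2 with DESeq2, 2 without the filter, 3 with library totals alone (2 higher and 1 lower, against 0 and 1), 6 with only the groups compared and 0 to 1 without single livers. The guide comparison gave 0 members in each alternative; where 1 liver was left in an arm, it was assumed to vary like the others. Library totals alone moved the median log2 fold change of all genes to 0.34 with age and 0.35 for knockout against young. The cause of these shifts was not tested.

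Directions turned for members that did not pass. Without single livers, Marco had log2 fold changes of -2.39 to 1.27 with age (1.27, 0.11 and 0.14 without young replicate 1, old Rosa26 replicate 1 and old Rosa26 replicate 2), -1.31 to 1.54 in the knockout comparison (1.54 without old Rosa26 replicate 3), -1.64 to 0.75 for knockout against young (0.75 without young replicate 1) and -1.67 to 1.12 between guides (1.12 without knockout replicate 2). Timd4 had -1.7 to 0.089 in the knockout comparison (0.089 without old Rosa26 replicate 2) and -0.55 to 0.33 for knockout against young (-0.06 without young replicate 3, -0.55 without knockout replicate 2). Siglec1 had -0.32 to 0.027 between guides (0.027 without knockout replicate 2). With limma voom, Marco had 0.12 in the knockout comparison and Timd4 -0.10 for knockout against young. Genes called overall with age were 3172, 1192 in a fit of both groups alone and 396 to 5327 without single livers. For knockout against young they were 1614, 2803 with DESeq2, 3585 with library totals, 969 by voom, 4223 in a fit of both groups alone and 56 to 1652 without single livers. For the knockout they were 0, 8 with DESeq2 and 0 to 3 without single livers, and between guides 3, 74 with DESeq2, 10 without the filter, 36 with only the knockout livers and 0 without single livers. Cd163 per Csf1r in old against young livers was -3.12 to -2.71 on the log2 scale when single livers were left out.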
